A study of Mus musculus with 4 samples.

Results

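Semaphorins are guidance proteins that cells display or secrete, plexins are their receptors, and neuropilins are co-receptors that plexins share with vascular growth factors. The family members were taken by gene symbol: semaphorins of classes 3 to 7, plexins A to D, neuropilins 1 and 2, and the plexin domain containing genes Plxdc1 and Plxdc2. This gave 33 genes of the 29247 in the count table, 20 semaphorins and 13 receptors or receptor-like genes. The study sequenced mRNA of flow-sorted liver macrophages from C57BL6J mice aged 8 weeks. The 3 Cxcr4+ libraries came from mice that had been given 300 mg/kg acetaminophen (APAP, a drug that damages hepatocytes at high dose) into the peritoneum 72 h before, and the single control library came from control macrophages. The labels name the Cxcr4 gate only for the APAP group, so APAP and the sort cannot be told apart. They do not say whether the APAP libraries stem from different mice. The p-values therefore rest on the spread among those 3 libraries, which may be technical, and take the lone control to vary to the same degree.

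Semaphorins were first known as cues that steer growing axons. Class 3 members are secreted, and classes 4 to 7 are held in the membrane, class 7 by a lipid anchor. A semaphorin on one cell binds a plexin on another, and the inner part of the plexin then switches off small GTPases of the Rap and R-Ras type, which changes adhesion and the actin skeleton. Secreted class 3 proteins mostly need a neuropilin beside the plexin. In the immune system these proteins take part in the movement of macrophages and dendritic cells and in their contacts with T cells.

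Total counts were 48282283, 52043418 and 56702837 in the Cxcr4+ APAP libraries and 49950909 in the control. Reads fell on 23376, 23854 and 23880 genes after APAP and on 18793 in the control. Zero counts in the control, and fold bounds drawn from them, are to be read beside this lower number of genes. Levels are given as CPM, read counts scaled to library size after normalization by the trimmed mean of M-values. Cxcr4, the sort marker, stood at 84.4, 132 and 101 CPM after APAP and 41.3 CPM in the control. Kupffer cell markers were present in every library, with Clec4f at 2784, 4082 and 4668 CPM after APAP and 13078 CPM in the control. Of the 13 Kupffer markers 10 were lower and 0 higher, with a summed level of 16189 to 21060 CPM after APAP and 40362.5 CPM in the control. Of 11 markers of recruited monocytes 9 were higher and 1 lower, with sums of 771 to 953 CPM and 236 CPM. In bulk libraries a change in the number of cells of a type and a change in RNA per cell cannot be told apart, and this holds for all values below.

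The promoters of 3 members with large rises are printed because they differ in kind. RefSeq promoter windows, from 250 bases before to 50 after a start site, were found for 26 of the 33 members, 37 windows in all. Nrp2 (chr1:62703067-62703366, + strand) and Plxnc1 (chr10:94944796-94945095, - strand) each have a single start with 37 and 30 CpG pairs. Sema4d has 3 starts in the table, with 2 or 3 CpG pairs each, and the most upstream is shown (chr13:51756634-51756933, - strand). Coordinates are GRCm38.p6, and capitals mark GGGCGG (the GC box), AGGAAGT (a core of the myeloid factor PU.1) or TGANTCA (AP-1) on either strand.
Nrp2: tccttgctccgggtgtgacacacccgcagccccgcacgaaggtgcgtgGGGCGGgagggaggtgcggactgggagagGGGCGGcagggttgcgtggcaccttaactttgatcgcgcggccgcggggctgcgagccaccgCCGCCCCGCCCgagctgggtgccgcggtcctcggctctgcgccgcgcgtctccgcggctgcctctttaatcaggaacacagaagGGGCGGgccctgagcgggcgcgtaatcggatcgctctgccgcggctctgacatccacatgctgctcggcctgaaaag
Plxnc1: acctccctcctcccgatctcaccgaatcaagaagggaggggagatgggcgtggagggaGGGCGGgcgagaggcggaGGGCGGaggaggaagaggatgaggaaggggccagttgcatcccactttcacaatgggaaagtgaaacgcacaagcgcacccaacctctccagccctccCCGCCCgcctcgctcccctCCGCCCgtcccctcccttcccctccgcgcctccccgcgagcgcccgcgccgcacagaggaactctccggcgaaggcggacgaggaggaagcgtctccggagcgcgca
Sema4d: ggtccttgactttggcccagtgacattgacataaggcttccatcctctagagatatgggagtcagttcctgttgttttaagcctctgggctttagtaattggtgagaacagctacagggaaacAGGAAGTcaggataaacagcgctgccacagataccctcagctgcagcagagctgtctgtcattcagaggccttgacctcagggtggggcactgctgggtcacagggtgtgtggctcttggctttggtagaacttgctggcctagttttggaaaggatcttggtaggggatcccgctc
The GC box was in 27 of the 37 member windows (73.0%), against 35.7% of all 32851 windows. The PU.1 letters were in 4 member windows (10.8%, against 9.35% of all) and the AP-1 letters in 3 (8.11%, against 7.81%). The median GC content was 63.67% in the member windows and 52.67% in all windows, so a GC-rich motif meets more GC-rich sequence there. The CpG-rich Nrp2 and Plxnc1 windows and the CpG-poor Sema4d windows belong to genes that were all higher after APAP.

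Most receptors of the family were higher in Cxcr4+ macrophages after APAP, while the semaphorins divided into a few large rises, 2 modest falls and many genes that did not pass the test. Sema4d, Sema7a and Sema4a, all displayed on the cell surface, were 15.7, 10.9 and 4.72 times the control level. Nrp2 was 9.42 and Plxnc1 5.20 times the control level. Sema6d, which had the highest level of the semaphorins in both groups, did not pass the test. The test was edgeR's quasi-likelihood F test over 18715 genes, called at a Benjamini-Hochberg adjusted p of 0.05. It included 28 of the 33 members, of which 16 were higher and 2 lower (57.1% and 7.14% of those tested), where 25.4% of all genes tested were higher and 18.9% lower, 44.3% either way. The shares of all genes are also the base for the counts of called genes in each marker and partner list. Sema3c, Sema4f and Sema5a had under 10 counts in the control and passed the count filter through the APAP libraries, and 2 of these 3 are among the 16. The control lay below all 3 APAP libraries for 19 of the 28 and above them for 3, where it did so for 45.7% and 39.2% of all genes. The median log2 fold change of the tested members was 1.28, against 0.085 for all genes tested, and members with 0 counts in the control did not alter it when set at their lower bound. Among the APAP libraries the highest level of a tested member fell in the first for 8 genes, in the second for 9 and in the third for 11, so no library led throughout.

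**Figure D1:**
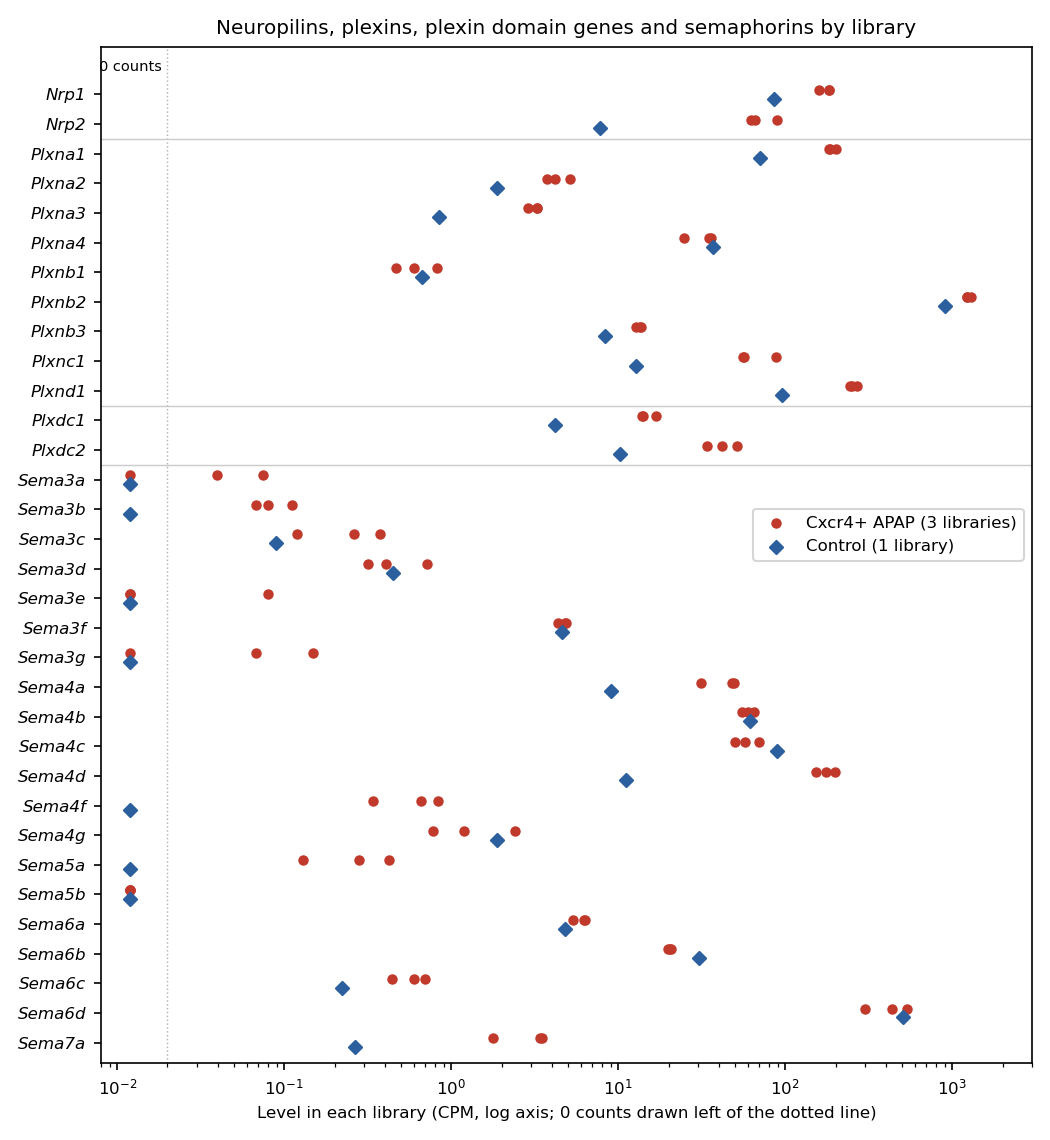
Level of each of the 33 family members in each library, in CPM on a log axis, with 3 points for Cxcr4+ APAP macrophages and 1 diamond for the control. Nrp2, Plxnc1, Sema4d, Sema4a and Sema7a show wide gaps, Sema4f and Sema5a have no reads in the control, and Sema6d, Sema4b, Sema3f and Plxnb1 have the control within the spread of the APAP libraries.

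Nrp1 and Nrp2, the co-receptors, were both higher. Nrp2, which binds class 3 semaphorins such as Sema3f and the lymphatic growth factor Vegfc, was at 89.1, 66.3 and 62.8 CPM after APAP and 7.72 CPM in the control. All 3 APAP libraries lay far above the control, and the first was the highest. Its change on the log2 scale was 3.24 (SE 0.26, adjusted p = 0.00113). Nrp1, which binds Sema3a and the growth factor Vegfa and is also a marker of sinusoidal endothelium and, in humans, of plasmacytoid dendritic cells, was at 183, 159 and 182 CPM after APAP and 85.3 CPM in the control. Its change was smaller, 1.04 (SE 0.12, adjusted p = 0.00244), and the groups did not overlap. Of 16 endothelial markers 6 were lower and 2 higher, with a summed level of 1019 to 1446 CPM after APAP and 2044 CPM in the control. The junction protein Cdh5 was the largest part of that sum, at 473, 692 and 747 CPM after APAP and 1268 CPM in the control, while the endothelial receptors Kdr and Ptprb were higher, by 0.41 and 0.55 on the log2 scale (adjusted p = 0.0431 and 0.0089). Of 10 plasmacytoid dendritic cell markers 8 were higher and 1 lower, and Siglech was at 18.2 ± 5.15 CPM after APAP and 0 counts in the control. The summed level of that list was 327 to 354 CPM after APAP and 384 CPM in the control, and without the abundant Bst2, its 1 lower gene, it was 199, 222 and 229 CPM after APAP and 95.45 CPM in the control. The part of endothelial and plasmacytoid dendritic cells in the neuropilin results was not tested.

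Of the 9 plexins, 7 were higher and 0 lower, beside 25.4% and 18.9% of all genes. Plxnc1, the receptor of Sema7a, had the largest change among them. It was at 87.6, 56.6 and 55.9 CPM after APAP and 12.8 CPM in the control, with the first APAP library highest. This was 2.38 on the log2 scale (SE 0.32, adjusted p = 0.00342). Plxna1, a receptor that works with neuropilins for class 3 semaphorins and also binds Sema6d, was at 202, 184 and 183 CPM after APAP and 70.4 CPM in the control. These libraries lay close together, and the log2 fold change was 1.43 (SE 0.11, adjusted p = 0.00107). An antisense gene overlaps 10.71% of the Plxna1 exon bases and had 23, 24 and 14 counts after APAP and 0 in the control, where Plxna1 had 10168, 9894 and 10733 counts and 3163. Plxnd1, the receptor of Sema3e and of Sema4a, was at 250, 268 and 244 CPM after APAP and 94.98 CPM in the control. Its change of 1.42 (SE 0.11, adjusted p = 0.00107) was close to that of Plxna1.

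Plxnb2, a receptor of class 4 semaphorins, was the most abundant member of the family but changed little. It stood at 1223, 1291 and 1228 CPM after APAP and 903 CPM in the control. The log2 fold change of 0.47 (SE 0.11) passed the test (adjusted p = 0.0187). The call was lost without the second APAP library (0.44, adjusted p = 0.105), where 16.2% of all genes were higher in place of 25.4%. Plxnb3, the receptor of Sema5a, was at 12.8, 13.5 and 13.6 CPM after APAP and 8.28 CPM in the control, a change of 0.69 (SE 0.14, adjusted p = 0.0133), and its call was also lost without that library (adjusted p = 0.0608). Among the scarce plexins, Plxna2 was at 5.13, 3.72 and 4.196 CPM after APAP and 1.89 CPM in the control (log2 fold change 1.20, SE 0.28, adjusted p = 0.0189). Plxna3 was at 2.88, 3.28 and 3.26 CPM after APAP and 0.845 CPM in the control, 1.89 on the log2 scale (SE 0.28, adjusted p = 0.00447). Both are class A receptors that pair with neuropilins.

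The other 2 plexins did not pass the test. Plxna4, a receptor of Sema6a, Sema6b and, with Nrp1, of Sema3a, was at 24.9, 35.0 and 35.8 CPM after APAP and 37.1 CPM in the control. The control lay just above the APAP libraries, and the 95% interval of the log2 fold change ran from -0.75 to 0.31. Plxnb1, a high-affinity receptor of Sema4d, was near the limit of detection, with 30, 25 and 48 counts after APAP and 30 in the control. Its interval ran from -1.28 to 1.11, so a change of up to that size was not detectable at this depth. Plxdc1 and Plxdc2 carry a plexin-like domain and are known as receptors of a secreted serpin. Plxdc1 was at 16.7, 14.0 and 13.8 CPM after APAP and 4.18 CPM in the control (log2 fold change 1.83, SE 0.19, adjusted p = 0.00191). Plxdc2 was at 34.0, 41.6 and 51.1 CPM after APAP and 10.2 CPM in the control (2.05, SE 0.26, adjusted p = 0.00281). Both were clear of the control in every APAP library.

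Fold changes in these libraries followed transcript length, and most plexins are long. Spearman's rank correlation between log2 fold change and the longest annotated transcript was 0.57 across 10973 genes with at least 5 CPM in a library. Genes are not independent replicates, and all share the same 4 libraries. Over 10 length bins of these genes, the median log2 fold change was -0.75 in the shortest and 0.77 in the longest, and 8 family members fell in the longest. When a trend with length and GC fitted on these genes was removed, 8 of 13 receptors were higher in place of 11, and 20.3% of all genes in place of 25.4%. Plxnb2 turned to -0.095 (adjusted p = 0.51), while Plxna2 at 0.26 and Plxnb3 at 0.20 lost their calls (adjusted p = 0.477 and 0.305). Plxna4, with the longest transcript of the abundant members, moved to -1.30 and was called lower (adjusted p = 0.00866). Nrp2 at 2.69, Plxnc1 at 1.78, Plxdc1 at 1.91, Plxdc2 at 1.49, Plxna3 at 1.34, Nrp1 at 0.99, Plxnd1 at 0.86 and Plxna1 at 0.62 were still called higher. The part of length in the uncorrected values was not tested beyond this.

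**Figure D2:**
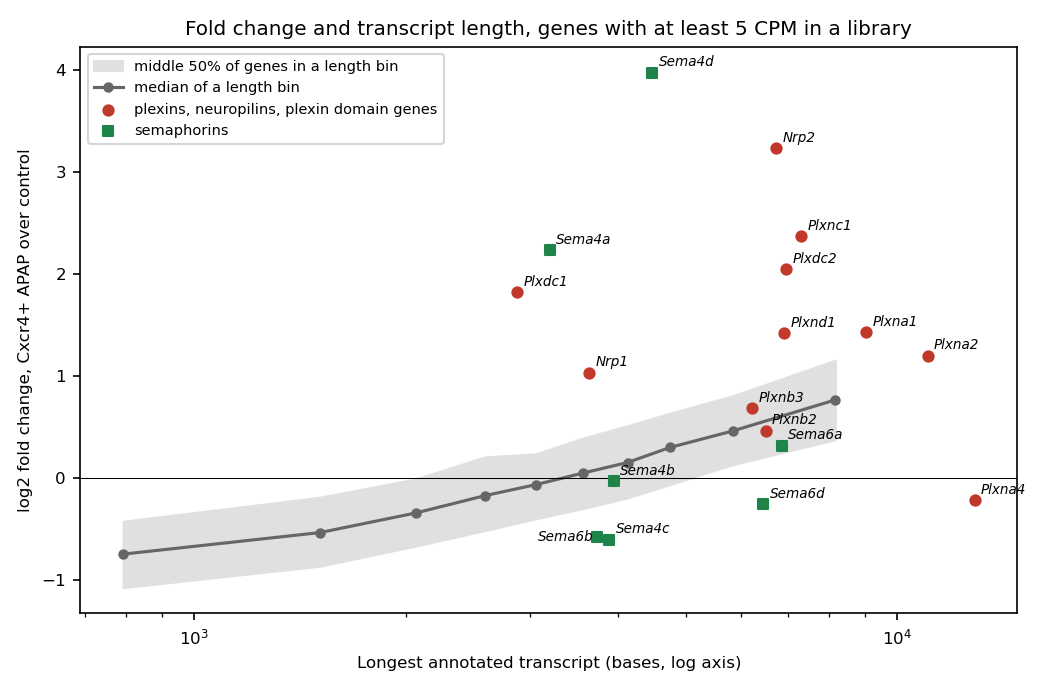
Log2 fold change of Cxcr4+ APAP over control against the longest annotated transcript in bases, for genes with at least 5 CPM in a library, with the median (line) and middle 50% (band) of 10 length bins and the family members as points. Sema4d, Nrp2, Plxnc1, Plxdc2, Sema4a, Plxdc1, Nrp1 and Plxnd1 lie above the band. Plxna1 and Plxna2, to the right of the band, lie above its upper edge at the longest bin. Plxnb2, Plxnb3 and Sema6a lie within the band, and Sema6d and Plxna4 lie below the middle of the longest genes.

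Among the ligands, the class 4 semaphorins had a summed level of 355, 349 and 315 CPM after APAP and 173 CPM in the control. Sema4d (CD100), a membrane protein best known from T cells that binds Plxnb1, Plxnb2 and, on immune cells, CD72, was at 199, 176 and 152 CPM after APAP and 11.2 CPM in the control. No APAP library came near the control. Its log2 fold change was 3.98 (SE 0.21, adjusted p = 0.000841), and it ran from 3.75 to 4.09 over 13 alternative settings, with a call in each. Of 12 T cell markers 9 were higher and 0 lower, with a summed level of 155, 164 and 125 CPM after APAP and 69.1 CPM in the control, 2.14-fold on average. Of 12 B cell markers 12 were higher, with sums of 427, 645 and 524 CPM and 72.6 CPM, 7.33-fold. Of 10 NK cell markers 6 were higher and 0 lower, with sums of 76.0, 57.2 and 45.3 CPM after APAP and 18.4 CPM in the control. The NK cell sum and the neutrophil sum given with Sema7a had the order of the APAP libraries seen for Sema4d, with the first highest and the third lowest, while the B and T cell sums were highest in the second. Such an order of few libraries cannot tell which cells carried Sema4d, and the part of these cells in the Sema4d level was not tested.

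Sema4a, known in mice from dendritic cells and as a ligand of Plxnd1 and TIM-2, was at 47.96, 49.3 and 31.3 CPM after APAP and 9.08 CPM in the control. The third APAP library was the lowest and still lay above the control. The change was 2.24 on the log2 scale (SE 0.31, adjusted p = 0.00356). Conventional dendritic cell markers were higher for 7 of 8 genes and lower for 1, with a summed level of 90.6, 108 and 123 CPM after APAP and 76.8 CPM in the control. Without Batf3, the 1 lower gene, the other 7 markers summed to 69.5, 85.1 and 96.4 CPM after APAP and 19.5 CPM in the control. The recruited monocyte sums (915, 953 and 771 CPM) and the T cell sums had the order of Sema4a in the APAP libraries, and the dendritic cell sum did not. The order of so few libraries cannot tell which cells carried Sema4a. The part of these cells in the Sema4a level was not tested. With length and GC corrected for on abundant genes the Sema4a change was 2.26. Sema4f, a scarce membrane semaphorin, had 33, 45 and 20 counts after APAP and 0 in the control, at least 9.16-fold higher against a floor of 3 counts in the control (adjusted p = 0.0125).

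Sema4c, a ligand of Plxnb2, was lower. It was at 50.03, 57.4 and 69.4 CPM after APAP and 89.7 CPM in the control, -0.60 on the log2 scale (SE 0.18, adjusted p = 0.0369). The groups did not overlap, but the call was lost without the second APAP library (-0.59, adjusted p = 0.106). There 11% of all genes were lower in place of 18.9%. An antisense gene with 80, 92 and 119 counts after APAP and 123 in the control overlaps 7.27% of its exon bases, and the 2 cannot be separated without strand. Sema4b was at 55.3, 64.8 and 59.4 CPM after APAP and 61.2 CPM in the control, within the spread of the APAP libraries, and its 95% interval on the log2 scale was -0.31 to 0.25. Sema4g, another ligand of Plxnb2, had 60, 42 and 141 counts after APAP and 85 in the control and did not pass the test (adjusted p = 0.645).

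Sema6d, the ligand of Plxna1, was the most abundant semaphorin and the one that varied most between the APAP libraries among members averaging at least 10 CPM there. It was at 301, 438 and 535 CPM after APAP and 507 CPM in the control. The highest APAP library was 1.78 times the lowest, and the control lay between them. The change was -0.26 on the log2 scale (SE 0.29, adjusted p = 0.499), with a 95% interval from -0.97 to 0.46. Kupffer markers had the same order of libraries, with sums of 16189, 20067 and 21060 CPM, as did the hepatocyte markers (1516, 1827 and 2414 CPM after APAP and 3777 CPM in the control). The sums of endothelial, plasmacytoid dendritic, conventional dendritic and bile duct markers also rose from the first to the third APAP library. A shared order of few libraries cannot tell which cells carried Sema6d, and the part of any of these cells in the Sema6d values was not tested. Sema6b, a ligand of Plxna4, was lower. It was at 20.4, 19.8 and 20.7 CPM after APAP and 30.3 CPM in the control, with almost no spread between the APAP libraries. It amounted to -0.58 on the log2 scale (SE 0.11, adjusted p = 0.00884). Sema6a, another Plxna4 ligand, was at 6.25, 6.31 and 5.34 CPM after APAP and 4.78 CPM in the control and did not pass the test (adjusted p = 0.235). Sema6c was under 1 CPM in every library and did not pass the test (adjusted p = 0.1).

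Sema7a, a lipid-anchored semaphorin that binds Plxnc1 and the collagen-binding integrin alpha 1 beta 1, was scarce but clearly different. It had 90, 189 and 199 counts after APAP and 12 in the control, or 1.79, 3.52 and 3.39 CPM and 0.267 CPM. The change was 3.43 on the log2 scale (SE 0.59, adjusted p = 0.00718). The first APAP library was the lowest for Sema7a and the highest for its receptor Plxnc1. Neutrophils are known to carry Plxnc1. Of 4 platelet markers tested 1 was higher, with sums of 8.22, 11.9 and 11.2 CPM after APAP and 4.38 CPM in the control. Of 10 neutrophil markers tested 6 were higher and 0 lower, with sums of 396, 307 and 214 CPM after APAP and 156 CPM in the control. Ly6g, Camp, Ltf, Ngp and Elane had 0 counts in the control. The part of these cells was not tested.

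Secreted class 3 semaphorins were scarce. Their summed level was 5.41, 5.88 and 5.59 CPM after APAP and 5.12 CPM in the control. Most of it was Sema3f (88.2%, 82.9% and 78.0% after APAP and 89.6% in the control), a repellent that acts through Nrp2, at 4.77, 4.88 and 4.37 CPM after APAP and 4.58 CPM in the control. Its 95% interval on the log2 scale was -0.45 to 0.51, while its co-receptor Nrp2 changed by 3.24. Sema3c had 6, 14 and 22 counts after APAP and 4 in the control, and Sema3d had 16, 22 and 42 counts and 20. Neither passed the test. Sema3a, Sema3b, Sema3e and Sema3g had at most 8 counts in any library and were not tested. In class 5, Sema5a, a ligand of Plxnb3, had 14, 7 and 25 counts after APAP and 0 in the control, at least 4.17-fold higher (adjusted p = 0.0397). That call was lost with limma-voom (adjusted p = 0.0606), with counts halved and rounded up (adjusted p = 0.0567) and under both corrections for length and GC (adjusted p = 0.0681 over all genes and 0.0866 on abundant genes). Sema5b had 0 counts in all 4 libraries, which allows up to 0.0597, 0.0558 and 0.0512 CPM after APAP and 0.0667 CPM in the control at 3 counts, for counting error only.

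**Figure D3:**
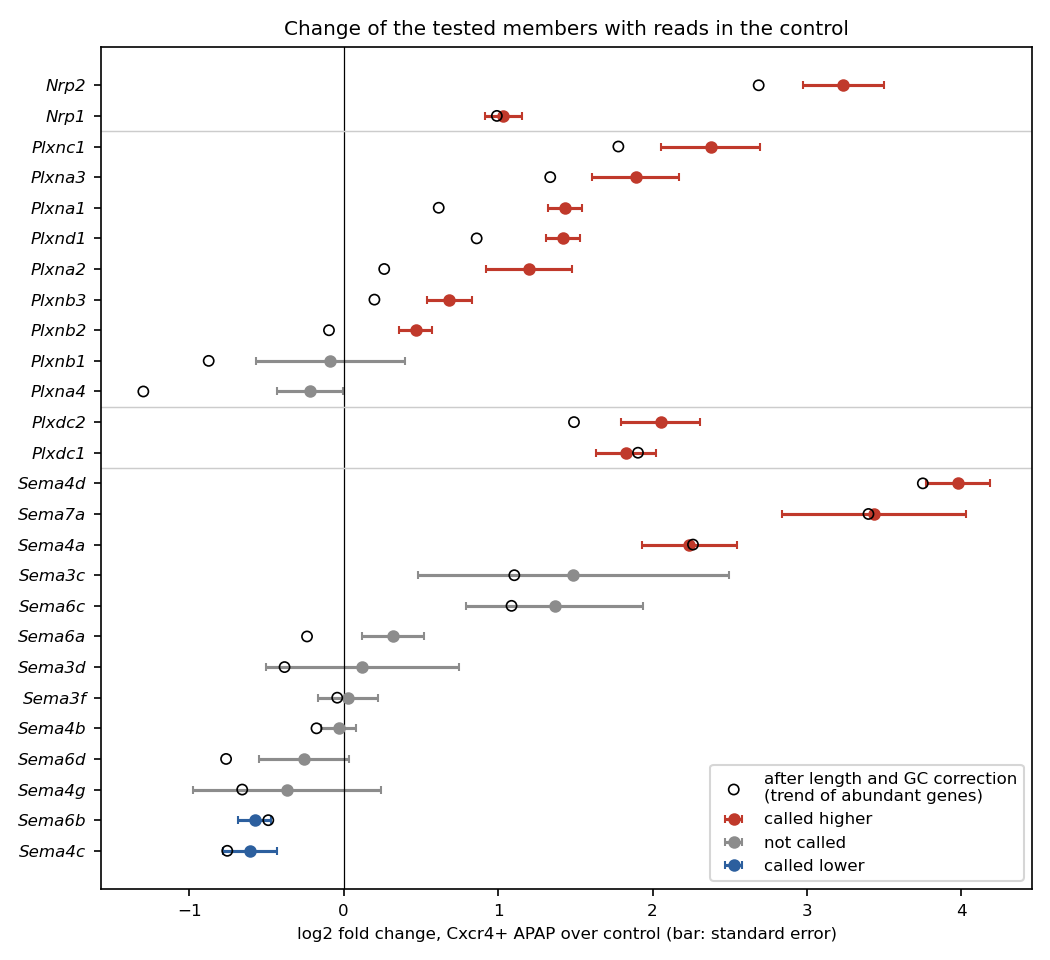
Log2 fold change of Cxcr4+ APAP over control with its standard error for the 26 tested members that had reads in the control, by role, with open circles for the values after the length and GC correction fitted on abundant genes. Nrp2, Sema4d, Sema7a, Sema4a and the Plxdc genes stay far from 0 on both scales, whereas Plxnb2 moves across 0.

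Between genes, levels were compared as CPM per kilobase of annotated exon. Among the receptors after APAP, Plxnb2 stood far above all others at 162 ± 4.90 CPM per kb (SD, n = 3), followed by Plxnd1 at 34.8 ± 1.75, Plxna1 at 21.0 ± 1.19 and Nrp1 at 17.9 ± 1.42 CPM per kb. These did not overlap between libraries. Plxnc1 at 7.99 ± 2.17, Nrp2 at 6.14 ± 1.21 and Plxdc2 at 6.08 ± 1.24 CPM per kb came next and overlapped each other. In the control the same unit gave 117 for Plxnb2, 13.01 for Plxnd1, 8.71 for Nrp1 and 7.77 for Plxna1, while Nrp2 was at 0.652. Plxnb2 made up 68.9%, 70.8% and 70.8% of the summed plexin level per kilobase after APAP and 81.5% in the control.

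The make-up of the semaphorins differed more. Sema4d contributed 28.3%, 21.6% and 18.0% of the summed semaphorin level per kilobase after APAP and 1.60% in the control. Its rank among the 20 semaphorins was 2 after APAP and 6 in the control. Sema6d contributed 31.0%, 39.3% and 46.0% after APAP and 52.8% in the control, and was first in both. Sema4c contributed 11.9%, 11.8% and 13.7% after APAP and 21.5% in the control. The summed level of all semaphorins was 91.8, 106 and 110 CPM per kb after APAP and 91.0 CPM per kb in the control, so the total differed far less than its composition. The 13 receptors and receptor-like genes together were at 265, 267 and 259 CPM per kb after APAP and 155 CPM per kb in the control. The sums carry no test of their own.

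**Figure D4:**
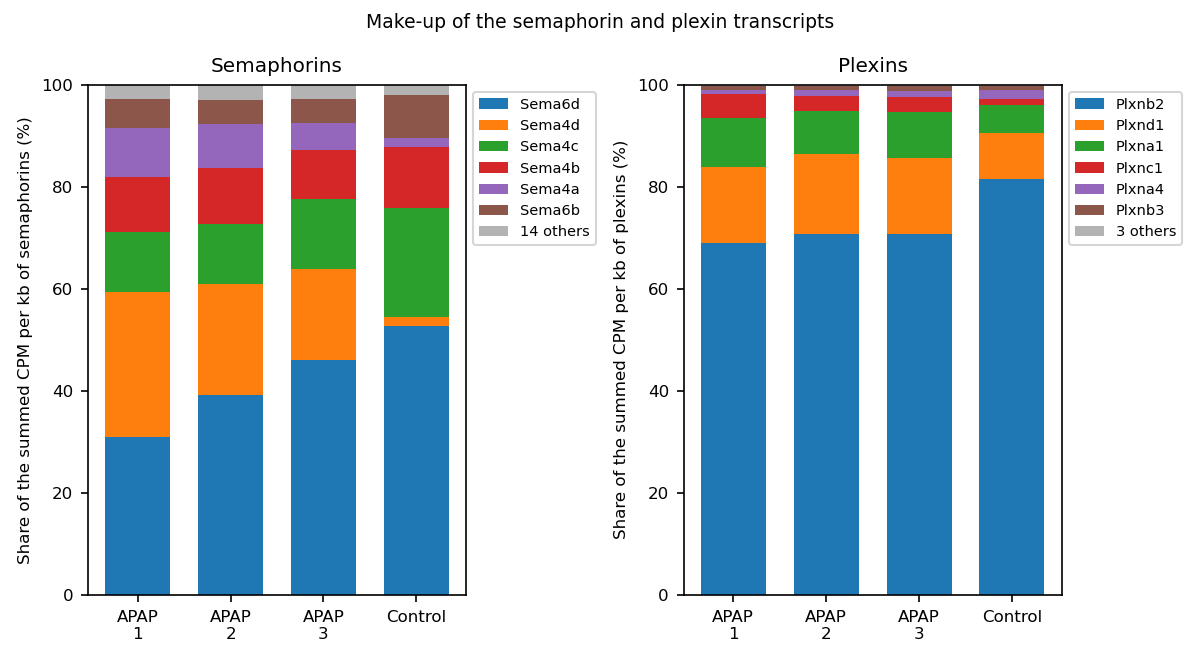
Share of each gene in the summed CPM per kb of the semaphorins (left) and the plexins (right), as stacked percentages for 3 Cxcr4+ APAP libraries and the control. Sema4d takes 18.0% to 28.3% of the semaphorin level after APAP and 1.60% in the control, and Plxnb2 takes most of the plexin level in every library.

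Set side by side, known ligand and receptor pairs within the family changed in different ways. Sema7a and Plxnc1 were both higher, by 3.43 and 2.38 on the log2 scale, as were Sema4a and Plxnd1, by 2.24 and 1.42. For Sema4d, with a change of 3.98, Plxnb1 stayed below 1 CPM in every library and the abundant Plxnb2 changed by 0.47. Its other receptor CD72, named here after its values were seen, was at 94.2 ± 17.6 CPM after APAP (SD, n = 3) and 196 CPM in the control (log2 fold change of Cd72 -1.06, adjusted p = 0.00918). Plxna1 rose while its ligand Sema6d did not pass the test. In mice, plexin A1 signals for Sema6d in dendritic cells and osteoclasts together with Trem2 and the adaptor Tyrobp (DAP12). Trem2 was at 333 ± 22.6 CPM after APAP and 66.0 CPM in the control (2.34, adjusted p = 0.000841), and Tyrobp at 851 ± 50.9 CPM and 1731 CPM (-1.02, adjusted p = 0.00199). Tyrobp has a short transcript of 597 bases, and with length and GC corrected for on abundant genes it was -0.28 (adjusted p = 0.114) and Trem2 2.05 (adjusted p = 0.00156). Sema4c and Sema6b were lower, and of their receptors Plxnb2 changed by 0.47 (-0.095 with length and GC corrected for) and Plxna4 did not pass the test. With the same correction Plxna4 was -1.30 and called lower (adjusted p = 0.00866).

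Partner genes of semaphorin signalling, taken from 4 lists, changed in both directions. Of 67 genes 62 were tested, and 22 were higher and 13 lower (35.5% and 21.0%, against 25.4% and 18.9% of all genes), with a median log2 fold change of 0.22. With length and GC corrected for on abundant genes the numbers were 13 and 13, where 20.3% of all genes were higher and 12.7% lower, and 13 of 62 is 21.0%. In the list of co-receptors and other receptors 6 of 14 were higher and 2 lower (42.9% and 14.3%, against 25.4% and 18.9% of all genes). L1cam, an adhesion protein that binds Nrp1, was at 6.91 ± 1.21 CPM after APAP and 0.623 CPM in the control (3.47, adjusted p = 0.00153). Met, the receptor of hepatocyte growth factor, which associates with class B plexins, was at 5.54 ± 0.55 CPM and 1.09 CPM (2.34, adjusted p = 0.00202). The abundant Itgb1, the beta chain of the Sema7a integrin, was at 540 ± 6.502 CPM and 640 CPM and did not pass the test (adjusted p = 0.0772). With the same correction Itgb1 was -0.39 and called lower (adjusted p = 0.0269). Itga1, the alpha chain of that integrin, also named after its values were seen, was at 12.7 ± 0.92 CPM and 7.03 CPM (0.85, adjusted p = 0.01). Corrected in this way, Itga1 was -0.091 and lost its call (adjusted p = 0.672).

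Of the 4 growth factors tested that bind neuropilins, 1 was higher. Vegfa, the main vascular growth factor, was at 2.32 ± 0.63 CPM after APAP and 0.445 CPM in the control (2.38, adjusted p = 0.00996), so it was scarce in both. Tgfb1, a latent growth factor that Nrp1 can bind, was at 387 ± 21.5 CPM and 437 CPM (adjusted p = 0.217). Vegfb at 0.69 and Vegfc at 0.72 on the log2 scale did not pass the test either. With length and GC corrected for on abundant genes Vegfb was 1.46 and called higher (adjusted p = 0.0146), while Vegfc was 0.88 (adjusted p = 0.392). Among proteases that process or shed semaphorins, 3 of 6 tested were higher and 0 lower. Mmp14, which can release Sema4d from the membrane, was at 42.4 ± 7.02 CPM and 16.6 CPM (1.36, adjusted p = 0.00456). Furin, which cuts class 3 precursors, was at 263 ± 18.6 CPM and 153 CPM (0.78, adjusted p = 0.00461), and Adam10 at 537 ± 9.24 CPM and 389 CPM (0.47, adjusted p = 0.0128). With length and GC corrected for on abundant genes Furin at 0.35 and Adam10 at 0.23 lost their calls (adjusted p = 0.0595 and 0.113). Adam17, another sheddase, was at 273 ± 2.31 CPM and 236 CPM and did not pass the test (adjusted p = 0.101), nor did the scarce precursor-cutting Pcsk6, at 0.397 ± 0.127 CPM and 0.934 CPM (-1.23, adjusted p = 0.0943).

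Downstream of plexins, 12 of 38 signal transduction genes tested were higher and 11 lower (31.6% and 28.9%, against 25.4% and 18.9% of all genes), so the share higher was near that of all genes. Rras, the R-Ras protein that plexins inactivate, was at 39.3 ± 5.69 CPM after APAP and 140 CPM in the control (-1.84, adjusted p = 0.00119). The abundant Rap1b was at 562 ± 7.44 CPM and 938 CPM (-0.74, adjusted p = 0.00275), and Rhoa, which drives contraction, at 493 ± 4.15 CPM and 897 CPM (-0.86, adjusted p = 0.00182). The actin-severing Cfl1 was at 769 ± 131 CPM and 1220.3 CPM (-0.67, adjusted p = 0.0315). Tiam1, an activator of Rac1, was at 11.4 ± 1.31 CPM and 1.89 CPM (2.59, adjusted p = 0.00129), and Rock1, a kinase that acts on the actin skeleton, at 123 ± 3 CPM and 60.8 CPM (1.01, adjusted p = 0.00139). With length and GC corrected for on abundant genes Rras was -1.12 (adjusted p = 0.00627), while Cfl1 at -0.44 lost its call (adjusted p = 0.117). The mRNA levels carry no information on the activity of these proteins.

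**Figure D5:**
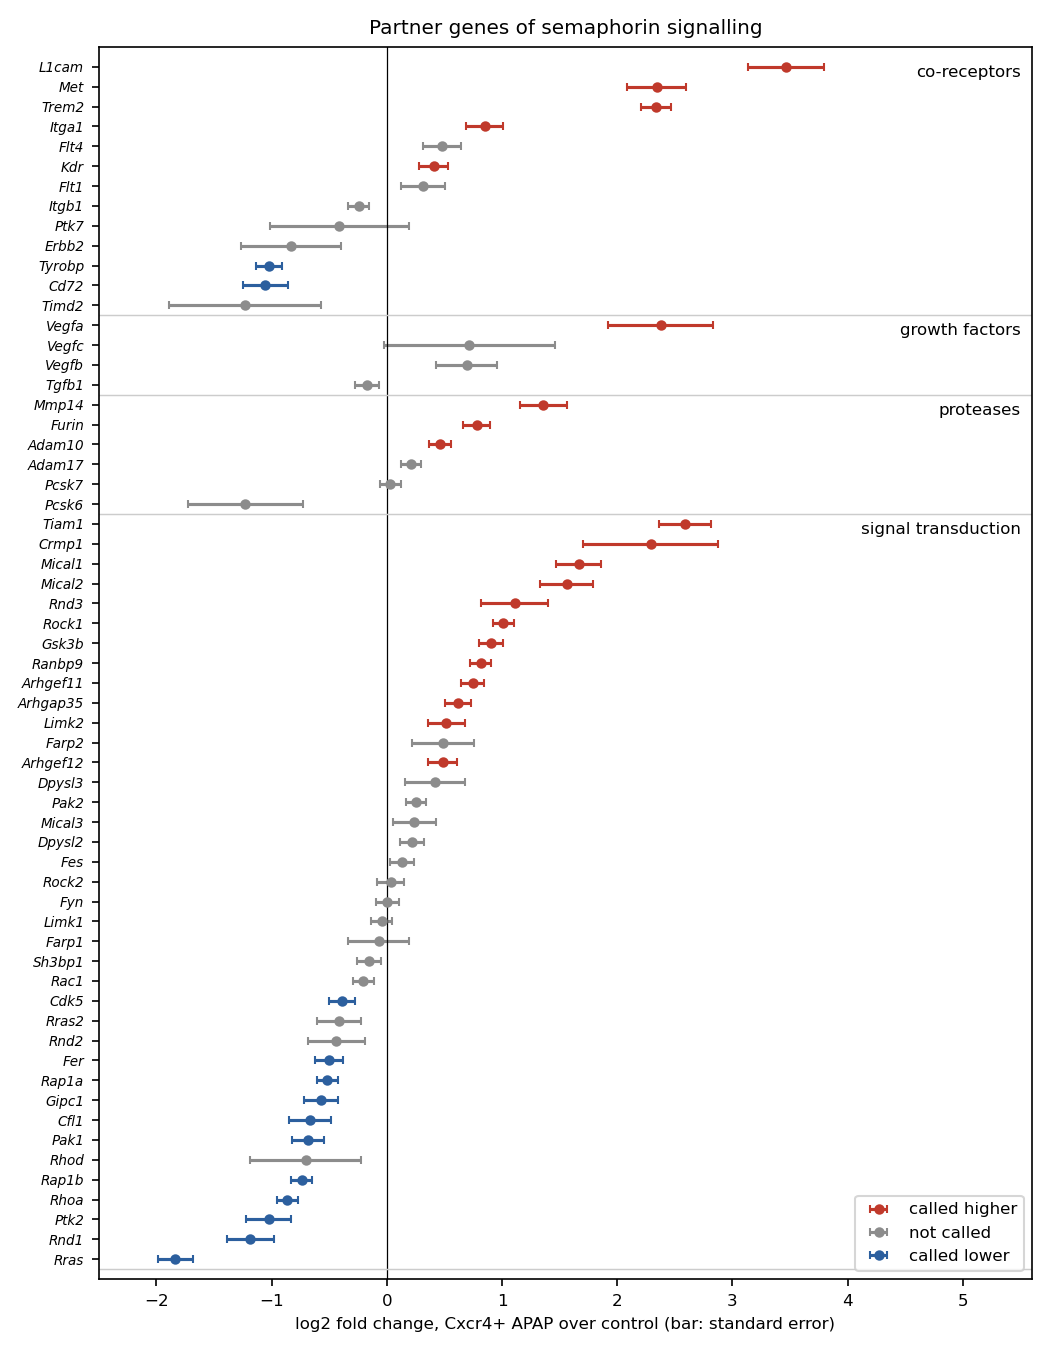
Log2 fold change of Cxcr4+ APAP over control with its standard error for the tested partner genes that had reads in the control, in 4 groups. Trem2, Met, L1cam, Vegfa, Mmp14 and Tiam1 lie at the upper end of their groups, and Rras, Rhoa, Tyrobp and Cd72 are among those called lower.

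Markers of the remaining cell types a liver gate can hold were read in the same libraries. Stellate cell and fibroblast markers, cells that can express class 3 semaphorins, were higher for 4 of 14 and lower for 7 (196 to 213 CPM and 278 CPM). Of 15 hepatocyte markers 12 were lower and 0 higher. Of 6 bile duct markers tested 2 were higher (33.3%, against 25.4% of all genes), with sums of 2.07 to 3.55 CPM after APAP and 1.69 CPM in the control. Their part in the semaphorin and plexin values was not tested.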

How the data were processed

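Counts per Ensembl gene were deposited by the authors as whole numbers that were not normalized. HISAT2, Subread and build mm39 are named by the submitters' processing notes. The sources used here do not give their versions, the annotation, the strand setting or the handling of shared reads. Low counts were mostly even (65.26% to 65.99% of values from 1 to 20 after APAP and 74.02% for the control). Intervals and floors may therefore be too narrow. The floors cover counting error only, while the intervals of the log2 fold changes also take in the spread among the APAP libraries. Symbols were found for 28926 of 29247 gene IDs. The 3 APAP columns carry no replicate number and were numbered in table order. Genes kept by filterByExpr (minimum count 10, minimum total 15) entered the quasi-likelihood F test of edgeR 4.0.16 (R 4.3.3), without covariates, with 2 residual and 3.8 prior degrees of freedom; p-values were adjusted by Benjamini-Hochberg and called at 0.05. The fit was tested on simulated data. Exon lengths came from GENCODE annotation of GRCm38, and promoters from RefSeq (GRCm38.p6). Alternatives were DESeq2 1.42.0 size factors and Wald test, upper-quartile factors, other count filters, limma-voom (limma 3.58.1), glmTreat, leaving out each APAP library, and a length and GC correction (mgcv 1.9.3). Halved counts and a correction fitted on genes of at least 5 CPM were added after the data were seen. All members are described. Partner genes were named by the 4 smallest p-values and 2 highest levels of each list, except Cd72 and Itga1. Members and lists were chosen with earlier results of these data known. Some marker genes are not reported here.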

Additional observations from a re-analysis of the deposited data

How the results depend on the processing

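Over all 13 alternatives 10 to 16 members were called higher and 0 to 3 lower. Of all genes tested, 5.87% to 28.4% were higher and 1.5% to 26.9% lower over these settings. With the first length and GC correction 14 were higher and 1 lower, and with the one fitted on abundant genes 12 and 3. The shares of all genes were 23.1% higher and 17.4% lower with the first, and 20.3% and 12.7% with the other. Testing against a log2 fold change of 1 with glmTreat left 10 members higher and 0 lower, and 6 partner genes called. Of all genes 5.87% were higher and 1.5% lower there. This test asks for a larger change by construction. Leaving out each APAP library in turn gave 14 to 16 members higher and 1 to 2 lower, and 25 to 40 partner genes called. Sema4d, Nrp2, Sema4a, Plxnc1, Plxna1, Plxnd1, Plxdc1, Plxdc2, Plxna3 and Sema7a were called higher under every alternative that tested them. Nrp1, Plxna2, Plxnb2, Plxnb3, Sema4c, Sema6b, Sema4f and Sema5a lost their calls under glmTreat. Some log2 fold changes turned sign. Leaving out each APAP library gave -0.27 to 0.34 for Sema3d and -0.0037 to 0.090 for Sema3f. For Sema4b it gave -0.092 to 0.021, and for Plxnb1 the highest was 0.089 and the lowest -0.31. With the length corrections Sema3d was -0.28 and -0.38, and Sema4b was 0.18 with the first. With the one fitted on abundant genes Plxnb2 was -0.095, Sema3f -0.041 and Sema6a -0.24. With the first length correction Sema4c (-0.38, adjusted p = 0.133), Sema6b (-0.31, adjusted p = 0.0653), Plxna2 (0.45, adjusted p = 0.228) and Sema5a (adjusted p = 0.0681) lost their calls. Plxna4 gained a call as lower with that correction (-1.16, adjusted p = 0.00925) and with the one fitted on abundant genes (-1.30, adjusted p = 0.00866). The cause of these changes was not tested. No paired analysis was possible because the control has 1 library and the columns carry no numbers. The single control and low counts limit the precision.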
